A study of Mus musculus with 8 samples.

Results

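The mitochondrial ribosomal protein genes of the developing mouse kidney were described across cell types and between kidneys with and without a deletion of Trim28 in the nephron lineage. The members were the gene rows whose symbol starts with Mrpl or Mrps followed by a digit, with pseudogenes left out. This rule uses no measured value and gave 78 of 32285 genes (0.242%), of which 49 carry a large subunit symbol (Mrpl) and 29 a small subunit symbol (Mrps). UMIs (unique molecular identifiers, 1 for each captured mRNA molecule) were found for all 78 of them.

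Kidney cells of 4 male embryos were described from a single pool sequenced by droplet 3′ single-cell RNA-seq, in which each embryo's cells carried their own multiplexing tag. The pool had 8 tags in use, and the cells of the 4 that the deposited tag list does not name were not used here. Mice 1 and 2 were Trim28Δ/Δ (floxed Trim28 alleles, recombined by a Six2-EGFP/cre transgene) and mice 3 and 4 were Trim28f/f (the floxed alleles alone), so both groups carry the floxed alleles. The Six2 promoter drives Cre in nephron progenitor cells (NPCs), and their descendants (renal vesicle, tubules and podocytes) inherit the deletion, whereas stroma, endothelium, immune cells and the ureteric bud lineage do not arise from them. Among these 4 mice the transgene is present in the Trim28Δ/Δ mice alone. The labels give the stage as E17.5 and the methods of the study as E18.5. The mouse is the replicate throughout (n = 2 for each genotype), and all 4 mice share a library.

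The mitochondrial ribosome translates the few proteins encoded by the mitochondrial genome, which are core subunits of the respiratory chain and of ATP synthase. Its RNA is made inside the organelle, but every one of its proteins is encoded in the nucleus, translated in the cytosol and imported, so that its assembly depends on both genomes. The kidney tubule, above all its proximal and thick ascending parts, is among the tissues richest in mitochondria, since it pays for the reabsorption of filtered solutes with ATP.

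The files held 550538685 gene UMIs in 3921239 barcodes. After the filters on cells and tags, 7363 cells were assigned to a mouse (1316, 1491, 2749 and 1807 cells for mice 1 to 4, with median UMIs of 16386 to 17354 per cell), and clustering gave 20 classes, 16 named by kidney cell type markers and 4 left with a number (clusters 5, 7, 14 and 20). Each named class had at least 5 of its markers raised. The SSB-like class (S-shaped body) was led by cell cycle genes rather than by its markers, and all its cells were in S or G2/M phase. Cluster 7 scored highest for NPC markers (Six2, Eya1) but also carried Wnt4 and was wholly in S or G2/M phase. Cluster 16, which makes up part of the collecting duct-like class, had 169 of its 170 cells from mouse 3, and cluster 23 within the erythroid-like class was led by Ly6d and also carried Cyp11a1, a steroid synthesis gene. Trim28 itself, counted at its 3′ end beyond the deleted exons, was at 16.4 and 31.0 CPM (counts per 1000000 UMIs) in the NPC-like cells of the Trim28Δ/Δ mice and at 120 and 142 CPM in those of the Trim28f/f mice, a log2 difference of -2.32 ± 0.36 (SE; edgeR adjusted p = 0.010). In stroma-like cells it was at 104 and 101 CPM against 88.6 and 122 CPM (-0.03 ± 0.24; edgeR adjusted p = 0.999). The labels of the tags and the Trim28 level thus pointed the same way.

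Mitochondrial ribosomal protein mRNA was most abundant in the tubule and, with hemoglobin UMIs counted in the total, scarcest in erythroid-like cells. The summed level of the 78 members was 10106 ± 310.2 CPM (SD over 4 mice) in PT-like cells, the proximal tubule, 9404 ± 539.8 CPM in distal tubule-like cells and 8934 ± 859 CPM in loop of Henle-like cells. In PT-like cells the 4 mice had 10475, 9902, 9803 and 10243 CPM. The acid-secreting intercalated-like cells followed at 8450 ± 824 CPM. PT-like cells were above distal tubule-like cells in 4 of 4 mice, and distal tubule-like above loop of Henle-like cells in 4 of 4 mice, although their ranges overlapped.

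**Figure D1:**
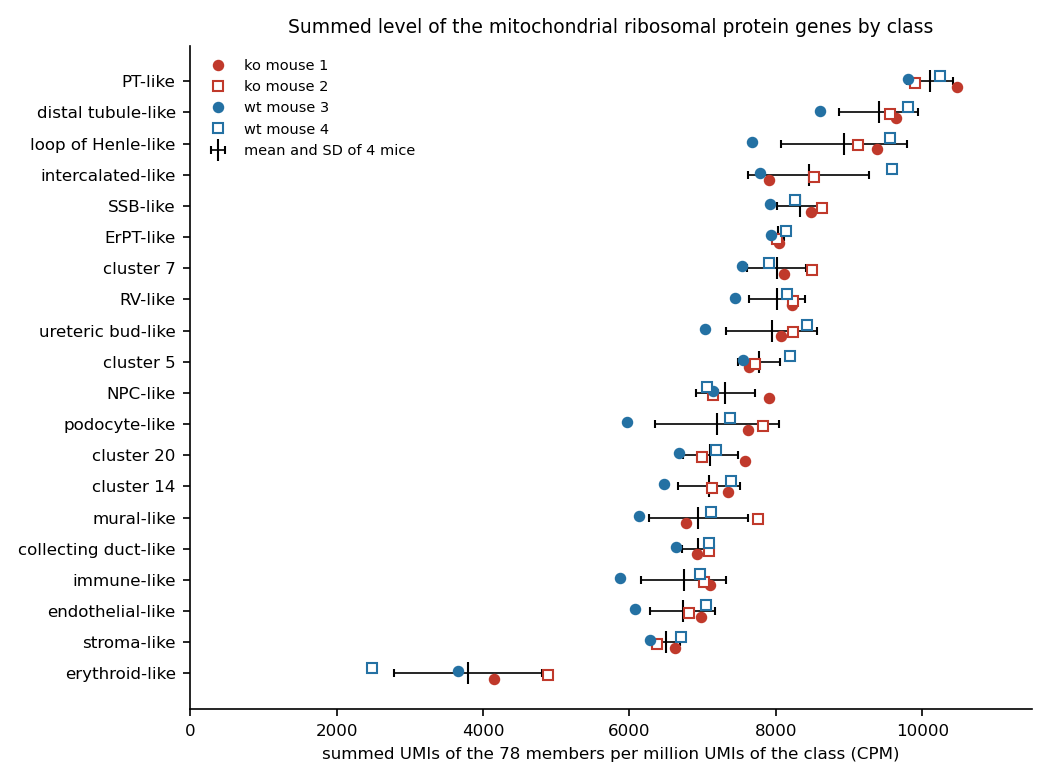
Summed CPM of the 78 mitochondrial ribosomal protein genes in each of 20 classes, with a point for each mouse (ko, Trim28Δ/Δ, in red and wt, Trim28f/f, in blue) and a bar for the mean and SD of the 4 mice. PT-like cells are at the top at 10106 CPM and erythroid-like cells at the bottom at 3797 CPM, and mouse 3 is the lowest point in 18 classes.

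The progenitors and early nephron stages lay in the middle of the order. NPC-like cells had 7310 ± 401 CPM (7909, 7136, 7136 and 7060 CPM in mice 1 to 4), RV-like cells (renal vesicle) 8012 ± 381 CPM, SSB-like cells 8325 ± 311.5 CPM and ErPT-like cells (early proximal tubule) 8030 ± 86.1 CPM. The NPC-like values rest on 13, 33, 85 and 210 cells of mice 1 to 4. Cluster 7 was at 8013 ± 400.4 CPM, above NPC-like cells in 4 of 4 mice. Podocyte-like cells, the filter cells of the glomerulus, had 7196 ± 844 CPM. Outside the nephron, ureteric bud-like cells had 7943 ± 623 CPM, collecting duct-like cells 6932 ± 208 CPM, endothelial-like cells 6728 ± 445 CPM, immune-like cells 6739 ± 578 CPM and stroma-like cells 6494 ± 199 CPM. Of the 19 pairs of neighbours in the order, 18 had overlapping ranges over the mice. Only erythroid-like cells (3797 ± 1011 CPM) lay apart from their neighbour, the stroma-like cells. Hemoglobin genes held 47.7, 33.1, 48.1 and 64.0% of the UMIs of these cells in mice 1 to 4. With those UMIs left out of the total, an alternative chosen after the data were seen, the members stood at 7300 ± 455 CPM (7935, 7312, 7046 and 6908 CPM), close to NPC-like cells. The erythroid-like class joins cluster 17 (21, 31, 68 and 44 cells in mice 1 to 4) with cluster 23 (7, 18, 31 and 3 cells). Their parts in this value were not tested. The low levels of single members in this class, given next, are on the scale with hemoglobin included.

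The denominator mattered for the progenitors. NPC-like cells held the highest share of cytosolic ribosomal protein mRNA of all classes. With the UMIs of the cytosolic ribosomal protein and mitochondrially encoded genes left out of the total, NPC-like cells had 11897 ± 533 CPM of the members and lay below only 3 of the other 19 classes, PT-like (13691 ± 432), distal tubule-like (12257 ± 642) and loop of Henle-like cells (12022 ± 1065). On this scale the erythroid-like class was still the lowest, at 4557 ± 1383 CPM with its hemoglobin UMIs in the total.

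Most structural parts of the ribosome shared this pattern. The 30 large subunit proteins with a bacterial counterpart summed to 4017 CPM in PT-like cells, against 1562 CPM in erythroid-like cells, and their class means had a Pearson correlation of 0.98 with the sum of all members over the 20 classes. The 21 large subunit proteins particular to mitochondria gave 0.99, the 17 small subunit proteins with a bacterial counterpart 0.97 and the 9 particular to mitochondria 0.97. The 3 proteins of the stalk, which recruits translation factors, gave 0.91 and the 5 of the central protuberance gave 0.90. The 7 proteins around the polypeptide exit departed most, at 0.71. The erythroid-like class was the lowest for each of these lists. Without it, an alternative chosen after the data were seen, the correlations over 19 classes were 0.95 to 0.98 for the first 4 lists, 0.97 for the stalk, 0.82 for the central protuberance and 0.41 for the polypeptide exit. These lists are parts of the sum with which they are compared, and all classes come from a single library.

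The ratio of large to small subunit mRNA was taken over these 4 lists, which place Mrps18a and Mrps30 in the large subunit and leave out Mrps36. It was lowest in loop of Henle-like cells at 1.92 ± 0.0093 (SD, n = 4) and highest in mural-like cells at 2.38 ± 0.088, with 2.17 ± 0.0088 in PT-like cells. The low value of the loop of Henle-like class rested on Mrps6, whose exons overlap those of Slc5a3. Without Mrps6, an alternative chosen after the data were seen, that class had 2.19 ± 0.015 and the lowest mean was that of intercalated-like cells at 2.14 ± 0.093, while mural-like cells were still the highest at 2.46 ± 0.093. By symbol alone, with Mrps18a, Mrps30 and Mrps36 on the small side, the ratio ran from 1.69 ± 0.02 in loop of Henle-like cells to 2.13 ± 0.15 in cluster 14, which carries the mural genes Pdgfrb and Rgs5.

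Single members followed the sum to different degrees. The highest class was PT-like for 27 members, distal tubule-like for 17 and loop of Henle-like for 6, and the lowest was erythroid-like for 71. The mean of the highest class exceeded that of the lowest by a median of 2.96-fold, from 2.07-fold for Mrpl9 to 7.54-fold for Mrps6. For the 71 members lowest in erythroid-like cells, the hemoglobin UMIs in the total of that class enlarge this ratio. They thus also enter the choice of the members with the largest ratios, and ratios without that class are not given here. With a single 3′ end counted for each transcript, levels were compared between genes without a correction for length. The members' mean over classes ran from 15.4 CPM for Mrps2 to 294 CPM for Mrpl52 with a median of 82.9 CPM, although the proteins sit in the ribosome at a single copy each but for the stalk. The Pearson correlation of a member with the sum of the others over the 20 classes had a median of 0.80. It exceeded 0.8 for 39 members and was under 0.5 for 3, which were Mrpl23 (0.42), Mrpl52 (0.46) and Mrps6 (0.46). Without the erythroid-like class the median was 0.67, with 18 members over 0.8 and 22 under 0.5, and the values of these members were -0.05, -0.32 and 0.40.

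**Figure D2:**
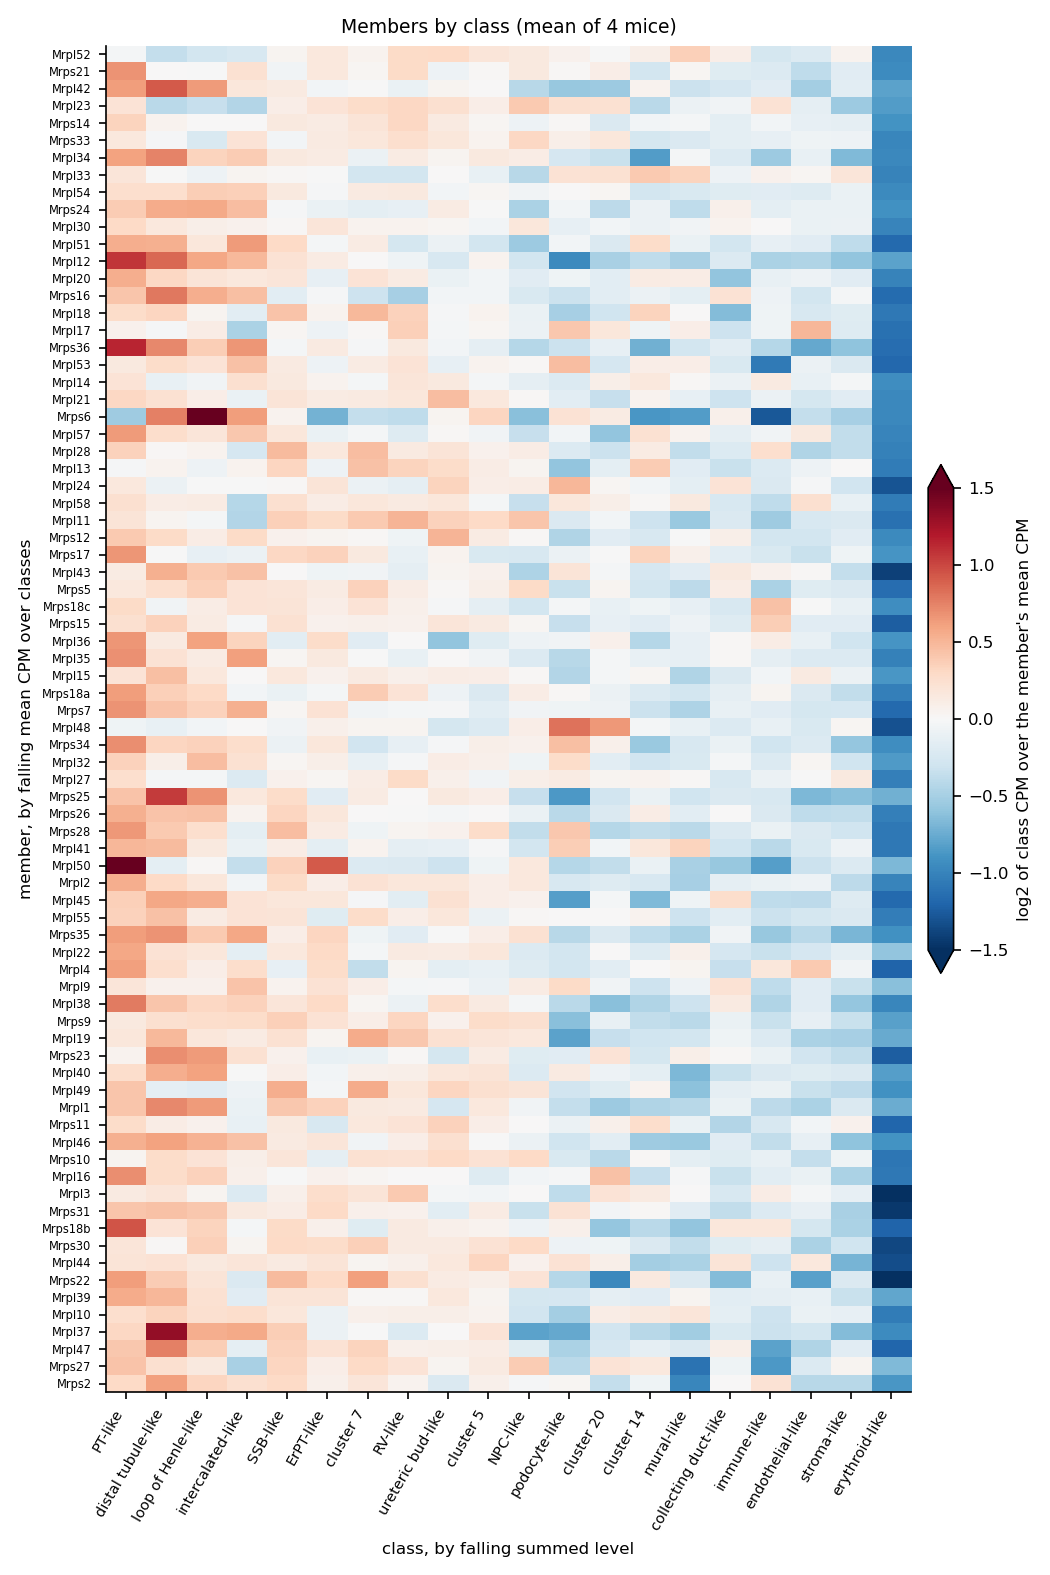
Class mean of each of the 78 members relative to its own mean over classes (log2 colour scale), with classes in columns and members in rows. PT-like and distal tubule-like columns are above the mean for most members, the erythroid-like column is below it, and Mrps6 stands out in the loop of Henle-like column.

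The 5 members with the highest mean level held 15.0% of all member UMIs. Mrpl52, a large subunit protein particular to mitochondria, reached 376 ± 53.2 CPM in mural-like cells (354, 414, 311.6 and 425 CPM) and 151 ± 40.5 CPM in erythroid-like cells, and its high levels lay outside the tubule. Mrps21, a small subunit protein, was highest in PT-like cells at 356 ± 20.7 CPM (379, 342, 335 and 366 CPM). Mrpl42 was highest in distal tubule-like cells at 422 ± 18.3 CPM (430, 426, 396 and 437 CPM), which was 3.30-fold above erythroid-like cells. Mrpl23, at the polypeptide exit, was highest in NPC-like cells at 274 ± 52.4 CPM, where mouse 3 had 350 CPM and the other mice 236 to 264 CPM. Its mean in PT-like cells was 241 CPM, so it did not share the proximal peak. Mrps14 had 251 ± 11.3 CPM in PT-like cells.

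The 5 members with the lowest mean level were Mrpl10 (28.9 CPM), Mrpl37 (26.8 CPM), Mrpl47 (24.9 CPM), Mrps27 (21.4 CPM) and Mrps2 (15.4 CPM). Mrpl10 anchors the stalk, and Mrps27 and Mrps2 belong to the small subunit. Even these were highest in a tubule class, distal tubule-like for 4 of them and PT-like for Mrps27 (28.7 ± 2.43 CPM).

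The largest contrast between classes belonged to Mrps6, a small subunit protein (GRCm38 chr16:92058270-92112227, plus strand). It had 353, 377, 312.3 and 413 CPM in the loop of Henle-like cells of mice 1 to 4 (364 ± 42.2 CPM). In immune-like cells it had 36.7, 54.8, 46.5 and 55.0 CPM (48.3 ± 8.66 CPM), and the ranges were far apart. Distal tubule-like (196 ± 28.3 CPM) and intercalated-like cells (180 ± 42.1 CPM) came next, while PT-like cells, the top class of the sum, had 80.8 ± 6.0 CPM. Mrps6 shares exons on the same strand with Slc5a3, the myo-inositol transporter that medullary tubule cells use as an osmolyte carrier. Slc5a3 was itself highest in loop of Henle-like cells (191 ± 34.3 CPM) and lowest in mural-like cells (12.6 ± 8.14 CPM), and how reads of the shared exons were split between these genes was not tested.

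Mrpl50 and Mrps22 followed with ratios of 5.01 and 5.10. Mrpl50 had 185, 185, 242 and 165 CPM in PT-like cells (194 ± 32.9 CPM) against 38.8 ± 4.43 CPM in immune-like cells and 76.3 ± 17.7 CPM in NPC-like cells. ErPT-like cells, the stage before, already had 130 CPM of it. Mrps22, a small subunit protein particular to mitochondria, went from 48.7 ± 5.37 CPM in PT-like to 9.56 ± 5.56 CPM in erythroid-like cells.

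**Figure D3:**
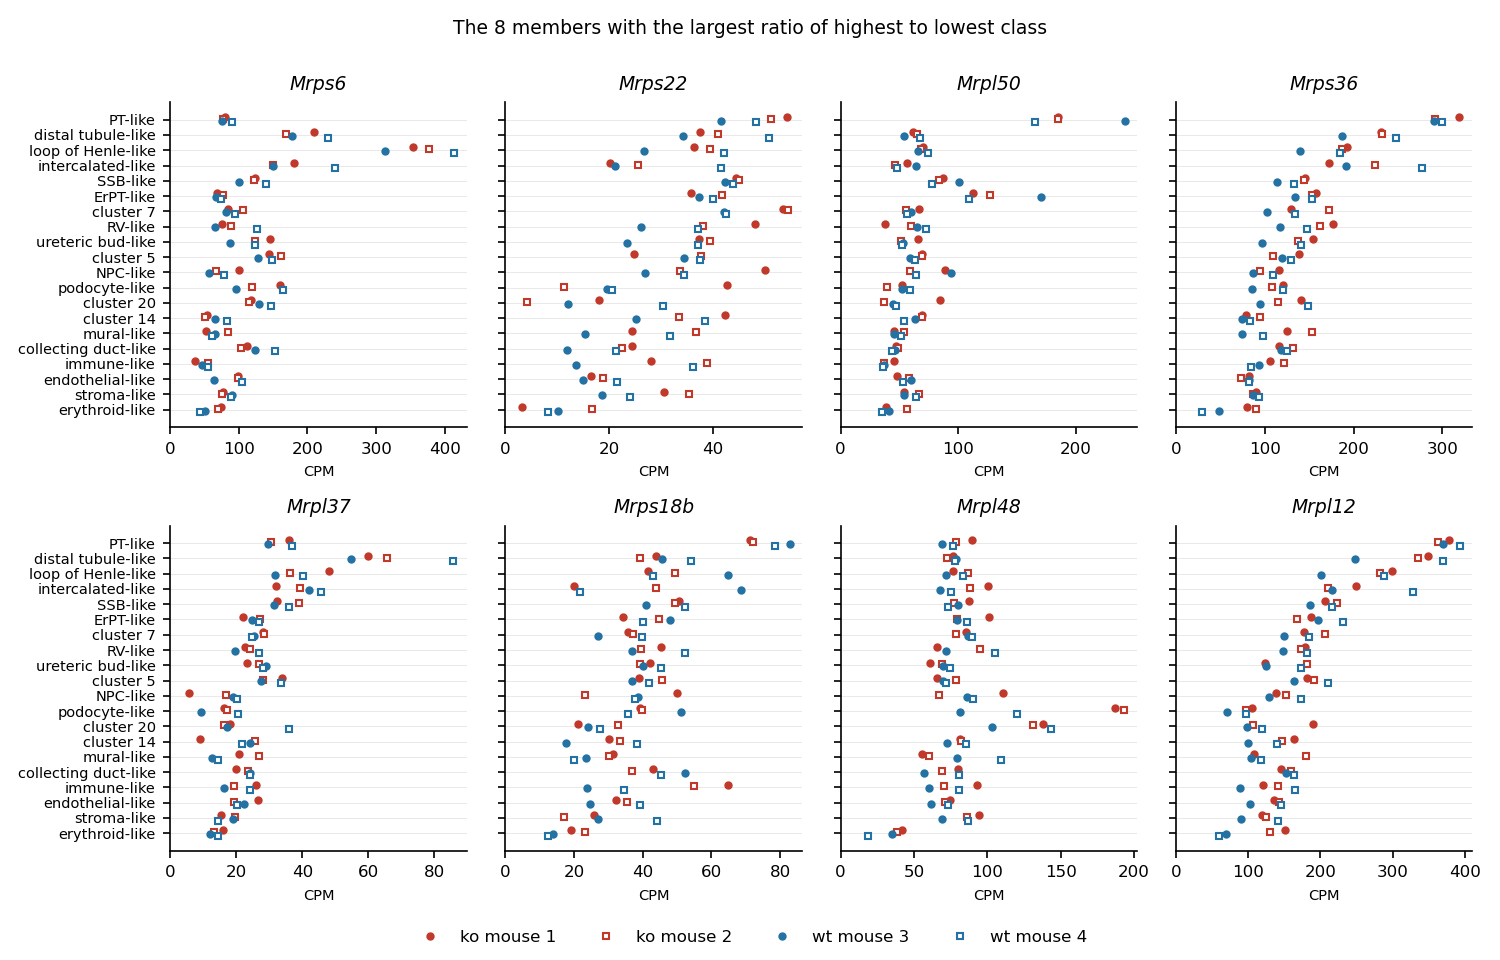
CPM (horizontal axes) of the 8 members with the largest ratio of the highest to the lowest class, with a point for each of the 4 mice in each class. For Mrps6 the loop of Henle-like points lie between 312.3 and 413 CPM, above those of all other classes, and for Mrpl12 the PT-like points lie between 363 and 393 CPM.

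Mrpl12, a stalk protein that is also known to bind the mitochondrial RNA polymerase (chr11:120484613-120489065, plus strand), had 378, 363, 370 and 393 CPM in PT-like cells (376 ± 13.1 CPM), followed by 326 CPM in distal tubule-like cells. It was lowest in podocyte-like cells at 92.4 ± 14.9 CPM (105, 96.6, 70.8 and 97.3 CPM) and had 148 ± 19.1 CPM in NPC-like cells. Mrps36, named as a ribosomal protein but known as a component of the α-ketoglutarate dehydrogenase complex of the citric acid cycle (chr13:100735955-100744659, minus strand), had 319, 291, 291 and 300 CPM in PT-like cells (300.3 ± 13.2 CPM), against 102 ± 13.6 CPM in NPC-like cells. Its correlation with the sum of the ribosomal members was 0.84, above the median of the members.

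Mrpl48 was 1 of 3 members, with Mrpl53 and Mrpl24, that had their highest mean in podocyte-like cells, at 145 ± 54.1 CPM. The mice had 187, 193, 81.0 and 120 CPM there, so both Trim28Δ/Δ mice were above both Trim28f/f mice. Cluster 20, which scored highest for podocyte markers and carries Foxd1, had 129 ± 17.8 CPM. Mrpl37 was highest in distal tubule-like cells at 66.5 ± 13.6 CPM, 4.77-fold above erythroid-like cells.

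The 3 paralogues of bacterial protein S18 differed in their pattern. Mrps18a, which lies in the large subunit, and Mrps18b, in the small subunit, were both highest in PT-like cells, at 131 ± 6.87 and 76.2 ± 5.46 CPM. Mrps18c was highest in immune-like cells at 122 ± 11.6 CPM, with 110 ± 4.35 CPM in PT-like cells, and the ranges of these classes overlapped. Mrps12, which lines the decoding site, was highest in ureteric bud-like cells (144 ± 27.9 CPM) and had 133 ± 12.7 CPM in PT-like cells. Mrpl45, which holds the ribosome at the inner membrane, was highest in distal tubule-like cells at 95.5 ± 22.7 CPM, where mouse 3 had 129 CPM and the others 79.8 to 86.8 CPM. Mrpl58, a peptide release factor built into the large subunit that rescues stalled ribosomes, had 122 ± 13 CPM in PT-like cells and a ratio of the highest to the lowest class of 2.45, under the median of 2.96. Mrps30, a large subunit protein despite its symbol, was highest in the cycling cluster 7 at 47.8 ± 7.27 CPM.

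The promoters of the members were searched for the core motifs of transcription factors known to control mitochondrial genes. RefSeq promoter windows (250 bases before to 50 bases after the transcript start, GRCm38.p6) were matched by symbol for 69 of the 78 members and for 27025 genes in all. The NRF1 core GCATGCGC, on either strand, was in 8 of the 69 (11.6%) and in 2.80% of all windows. The ETS core CCGGAAGT, bound by GABPA among others, was in 11 (15.9%; 4.0% of all). The YY1 core AAGATGGCG was in 8 (11.6%; 1.49% of all), in 6 of them after the transcript start. The E-box CACGTG, bound by MYC among others, was in 5 (7.25%; 7.24% of all). At least 1 of the NRF1, ETS and YY1 cores was in 25 members (36.2%; 7.85% of all). The member windows were richer in G and C, with a median of 58.3% against 52.7%. A match is a run of letters and not a bound site.

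The sequences below are those of members described here, shown to let the position and surroundings of the cores be compared. Each is in the direction of the gene, with the core in capitals, and the position of its first base relative to the start is given where it is described next. The NRF1 core of Mrpl10 lies at -134, those of Mrps18b at -223 (shown) and at 29, and that of Mrpl33 at -12, beside an ETS core at -3.
Mrpl10, NRF1, chr11:97041408-97041495, plus strand: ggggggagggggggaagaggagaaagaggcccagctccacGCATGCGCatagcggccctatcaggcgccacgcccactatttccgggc
Mrps18b, NRF1, chr17:35916646-35916673, minus strand: acggcccgacGCATGCGCactgggagca
Mrpl33, NRF1, chr5:31613929-31613956, plus strand: accggaacccGCGCATGCcccggaagta
Mrpl33, ETS, chr5:31613938-31613965, plus strand: cgcgcatgccCCGGAAGTagtcgttgag
Mrps22, ETS, chr9:98601680-98601730, minus strand: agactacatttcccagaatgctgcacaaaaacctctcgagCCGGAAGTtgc
Mrpl52, ETS, chr14:54426900-54426927, plus strand: ggccacgcccACTTCCGGttcccttgct
Mrpl42, YY1, chr10:95501904-95501932, minus strand: agattgaagcAAGATGGCGagcgcgcggt
Mrpl37, YY1, chr4:107066822-107066850, minus strand: tgcacgggcaAAGATGGCGgcgtccaggt
Mrpl35, YY1, chr6:71823743-71823771, minus strand: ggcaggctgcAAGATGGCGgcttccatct
Mrps18a, YY1, chr17:46111005-46111033, plus strand: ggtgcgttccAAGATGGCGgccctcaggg
Mrps27, YY1, chr13:99344790-99344818, plus strand: ggtgcgctccAAGATGGCGgctcccatgg

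The ETS cores of Mrps22 and Mrpl52 begin at -11 and 2, next to the start. The YY1 cores shown all lie just after the start, from position 12 in Mrps18a to position 28 in Mrpl42, and hold the ATG of a possible start codon. The 8 members with a YY1 core were higher in PT-like than in stroma-like cells by a median of 0.84 on the log2 scale, against 0.56 for the 61 members without it. For the NRF1 core the medians were 0.58 with and 0.57 without, for the ETS core 0.40 and 0.61, and for the E-box, in 5 members and no more frequent in them than in all windows, 0.94 and 0.55. These medians are given as a description, with no test.

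Mrpl46, of the central protuberance, and Mrps11, of the small subunit, lie on opposite strands of chromosome 7 with overlapping 5′ ends, their starts 412 bases apart.

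In single cells, a median of 66 of the 78 members was detected in PT-like and 65 in SSB-like cells, against 14 in erythroid-like cells. Depth differed between classes, with a median of 24530 UMIs in SSB-like, 9975 in podocyte-like and 9482 in erythroid-like cells, although podocyte-like cells, near the erythroid-like depth, had 41 members detected. After each cell was thinned to 6800 UMIs, the medians were 40 members in PT-like, 39 in distal tubule-like, 37 in intercalated-like, 36 in SSB-like and loop of Henle-like, 33 in NPC-like, 29 in stroma-like and 11 in erythroid-like cells, whose UMIs are in large part those of hemoglobin. Barcodes of 10 to 100 UMIs, which hold free RNA, had a summed member level of 8531 CPM, within the range of the cell classes, and so members detected in a cell can in part come from free RNA.

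The members' level was also taken by cell cycle phase, as called from expression alone, in the 5 classes with enough cells of each mouse, and no difference passed the test, which could not reach 0.05 with 4 mice. In endothelial-like cells the summed level was 6355 ± 471 CPM in G1, 7088 ± 527 CPM in S (11.5% higher) and 7285 ± 538 CPM in G2/M (14.6% higher), each higher in 4 of 4 mice. In RV-like cells it was 7585 ± 304 CPM in G1 and 8112 ± 422 CPM in S (6.94% higher in 4 of 4 mice), in cluster 5, which carries Fgf8 and Lgr5, S was 4.34% above G1 and in stroma-like cells 4.20% above it, in 4 of 4 mice each. In ErPT-like cells S was 1.56% above G1, in 3 of 4 mice. The paired exact permutation test (two-sided) gave p = 0.125 for each comparison with 4 of 4 mice, the smallest p that 4 pairs allow, and 0.15 after Benjamini-Hochberg adjustment over the 6 comparisons made. The PT-like class, with 4.20% of cells in S or G2/M, was above all classes compared here by phase.

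Genes of neighbouring functions were followed next. Among 6540 genes outside the members, those whose CPM was most like the summed member level over the 80 class and mouse sums were Timm13 (Pearson r = 0.87), Chchd2 (0.87), Phb2 (0.86), Ndufs6 (0.85), Tecr (0.85), Atp5e (0.85), Ndufb7 (0.84), Psmb5 (0.84), Micos10 (0.83) and Ndufb3 (0.82). Of these, Timm13 carries proteins across the mitochondrial intermembrane space, Phb2 (prohibitin) and Micos10 organise the inner membrane, Ndufs6, Ndufb7 and Ndufb3 are subunits of complex I and Atp5e is a subunit of ATP synthase. Tecr acts in fatty acid elongation and Psmb5 in the proteasome. Over the 76 sums without the erythroid-like class the correlations of these 10 genes were 0.76 to 0.89.

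Over the 20 class means, the summed level of the 15 mitochondrial translation factors had a correlation of 0.95 with that of the members. Tufm, the elongation factor that brings charged tRNAs, was highest in distal tubule-like cells (110.0 ± 18.6 CPM), as were Tsfm (87.5 ± 16.2 CPM), which recharges it, and Gfm1 (53.4 ± 12 CPM), which moves the ribosome along. The 5 ribosomal proteins with other symbols (Dap3, Ptcd3, Chchd1, Aurkaip1 and Gadd45gip1) gave 0.85, with Gadd45gip1 at 174 ± 10.3 CPM in PT-like cells. The 18 assembly factors gave 0.82. Rbfa, which matures the small subunit, departed from the others with 91.3 ± 22.9 CPM in immune-like cells against a mean of 33.9 CPM over classes. The 17 aminoacyl-tRNA synthetases gave 0.69 and the 9 genes of mitochondrial DNA transcription and replication 0.54. Without the erythroid-like class these values were 0.92 for the translation factors, 0.71 for the proteins with other symbols, 0.62 for the assembly factors, 0.57 for the synthetases and 0.27 for the DNA transcription and replication genes.

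The nuclear oxidative phosphorylation genes had a correlation of 0.77 with the members over classes and the 13 mitochondrially encoded mRNAs, the templates of this ribosome, had 0.57. The cytosolic ribosomal proteins had 0.13. Without the erythroid-like class the values were 0.82, 0.59 and -0.31. The total behind these CPM includes the cytosolic ribosomal protein UMIs themselves, which stood at 350620 CPM in NPC-like cells. The part of this denominator in the correlations was not tested. Among regulators, Ppargc1a, a coactivator that drives mitochondrial biogenesis, was highest in distal tubule-like cells at 377 ± 81.3 CPM and lowest in cluster 14 at 11.7 ± 8.69 CPM. Esrra, the nuclear receptor that it works with, was highest in distal tubule-like cells as well (48.4 ± 8.75 CPM). Myc was highest in NPC-like cells (53.9 ± 20.2 CPM) and Mycn in RV-like cells (80.9 ± 32.5 CPM), classes in the middle of the members' order.

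No change of a member between the genotypes passed the test in any class. In the nephron lineage, 0 members were called by edgeR at an adjusted p of 0.05 in NPC-like cells (78 tested; 0.502% of 7974 genes were called), RV-like cells (78; 0.327% of 9170), SSB-like cells (78; 0.171% of 11698), ErPT-like cells (78; 0.319% of 11275) or PT-like cells (78; 0.474% of 12443). The same held in podocyte-like cells (71; 0.172% of 5238), loop of Henle-like cells (78; 0.112% of 10758) and distal tubule-like cells (78; 0.778% of 9253). It held in cluster 5 (78; 0.927% of 10576), cluster 7 (78; 1.56% of 10389), cluster 20 (72; 0.520% of 5576) and immune-like cells (76; 0.0288% of 6933). In cluster 14 and in the collecting duct-like, endothelial-like, erythroid-like, intercalated-like, mural-like, stroma-like and ureteric bud-like cells, 0 members (69 to 78 tested) and 0% of all genes were called. DESeq2 called 0 members in all 20 classes as well, where it called between 0% and 0.852% of all genes. At an unadjusted edgeR p under 0.05 there were 0 members in NPC-like, ErPT-like, PT-like, collecting duct-like and ureteric bud-like cells, and between 1 and 3 in each of the other classes. The share of all genes at this unadjusted level is not given here, so these counts stand without a background. At the shares of all genes called at an adjusted p of 0.05, fewer than 2 calls would stand among 78 members in any class, so the members' count of 0 is near the background. Leaving out mouse 4 (Trim28f/f) changed these counts. EdgeR then called 20 of 78 members in loop of Henle-like cells (16.4% of 11318 genes), 17 in collecting duct-like cells (25.7% of 11719; cluster 16 holds 169 of the 172 cells of mouse 3 in this class and 1 cell of the Trim28Δ/Δ mice), 7 in ErPT-like cells (16.7% of 11468), 4 in PT-like cells (9.98% of 13132) and 2 of 76 in NPC-like cells (6.82% of 6948). It called 8 in endothelial-like cells (13.1% of 11718), which do not arise from the progenitors that undergo the deletion, 5 in cluster 7 (9.45% of 9177), 4 in SSB-like cells (4.84% of 11978), 3 in cluster 5 (7.79% of 11072) and 3 of 72 in podocyte-like cells (6.5% of 5753). There was 1 call in each of RV-like (5.34% of 8840), distal tubule-like (5.94% of 9963) and intercalated-like cells (9.76% of 7192). In this fit mouse 3 stands alone for its genotype and is assumed to vary as the Trim28Δ/Δ pair does. The make-up of endothelial-like and PT-like cells also differed between the mice. Cluster 22 held 35 of 168 and 24 of 120 endothelial-like cells in the Trim28Δ/Δ mice, 5 of 160 in mouse 3 and 13 of 111 in mouse 4, and cluster 6 held 132 of 313 and 174 of 344 PT-like cells against 26 of 157 and 86 of 185. The part of this make-up in the calls was not tested.

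**Figure D4:**
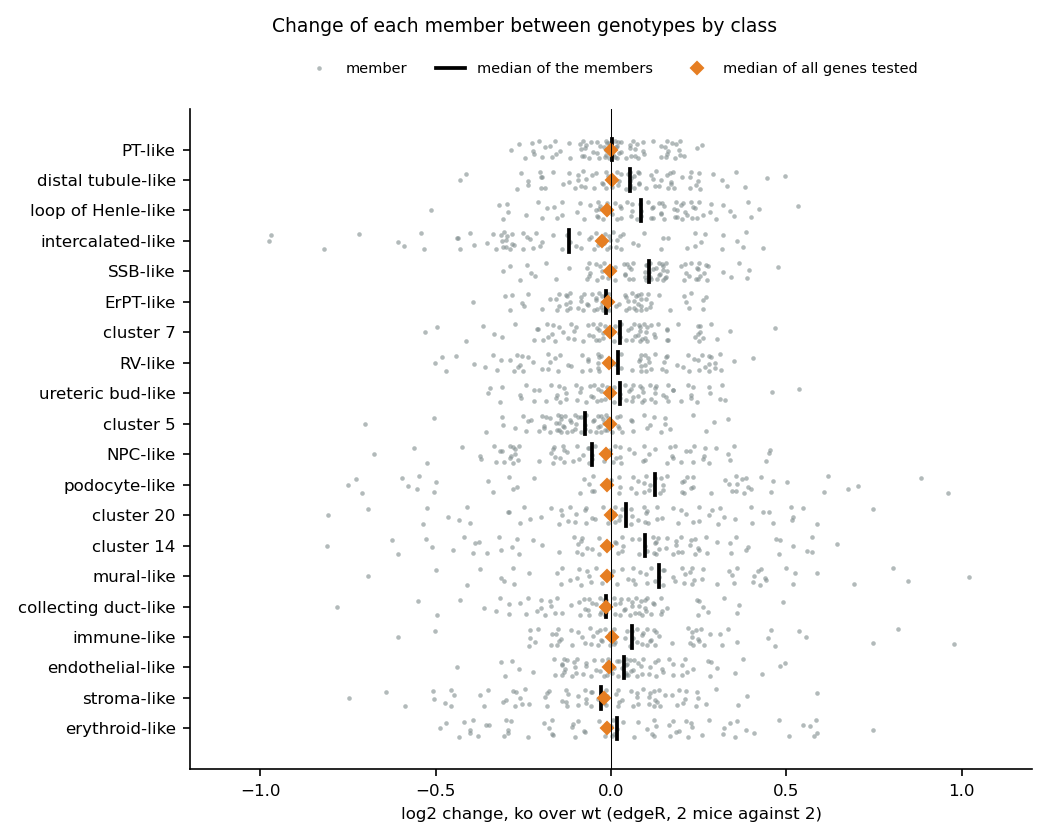
Log2 difference (Trim28Δ/Δ over Trim28f/f) of each tested member in each of the 20 classes as grey points, with a bar at the median of the members and a diamond at that of all genes tested. The medians lie between -0.121 in intercalated-like and 0.137 in mural-like cells.

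The width of the intervals differed between classes. In PT-like cells the 95% interval of the log2 difference lay within a 2-fold change in either direction for 78 of 78 members and within 1.5-fold for 74. In ErPT-like and distal tubule-like cells it lay within 2-fold for 78 of 78, in SSB-like cells, cluster 5 and cluster 7 for 77 and in NPC-like cells for 55 of 78. In podocyte-like (35 of 71), mural-like (37 of 69), erythroid-like (36 of 69) and intercalated-like cells (35 of 76) fewer members had such an interval. For the other members tested in these classes the interval reached beyond a 2-fold difference. The parts of depth and of the spread between mice in these widths were not tested.

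The NPC-like class held few cells of the Trim28Δ/Δ mice, 13 and 33 against 85 and 210 of the Trim28f/f mice. Their member UMIs were 1425 and 3407 against 9041 and 24249. In NPC-like cells the 5 members with the smallest p among those that moved the same way in all 4 pairs of a Trim28Δ/Δ and a Trim28f/f mouse were Mrpl52, Mrps15, Mrps7, Mrps31 and Mrpl33, with edgeR adjusted p of 0.90 to 0.93. Mrpl52 had 300.9 and 301.4 CPM in the Trim28Δ/Δ mice and 379 and 358 CPM in the Trim28f/f mice, a log2 difference of -0.29 ± 0.18 (SE). Mrps15 differed by -0.42 ± 0.28, Mrps31 by -0.56 ± 0.41 and Mrpl33 by -0.33 ± 0.25, while Mrps7 was at 0.45 ± 0.31. None of these differences exceeded the spread between mice by this test. Of the 78 members, 12 were lower and 8 higher in all 4 pairs, 15.4% and 10.3%, against 19.8% and 17.8% of all genes tested. Leaving out a mouse gave 0.12 to 0.82 for Mrps7, -0.78 to -0.26 for Mrps31 and -0.52 to -0.14 for Mrpl33, in each case with the smaller size when 1 of the Trim28Δ/Δ mice was left out. At a clustering resolution of 0.4 the difference was 0.0082 for Mrpl52 and 0.051 for Mrps31, the opposite direction.

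In PT-like cells the same rule gave Mrpl35, Mrpl1, Mrpl40, Mrpl19 and Mrps10, all lower in both Trim28Δ/Δ mice, with edgeR adjusted p of 0.58 to 0.65. Mrpl35 had 132 and 120 CPM against 163 and 140 CPM (-0.26 ± 0.13). The others were at -0.25 ± 0.12 (Mrpl1), -0.29 ± 0.15 (Mrpl40), -0.22 ± 0.12 (Mrpl19) and -0.22 ± 0.13 (Mrps10). Of the 78 members, 15 were lower and 13 higher in all 4 pairs, 19.2% and 16.7%, against 19.0% and 20.9% of all genes tested.

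The smallest adjusted p of a member in any class was in cluster 7 and belonged to Mrpl23, with 217 and 204 CPM in the Trim28Δ/Δ mice and 346 and 262 CPM in the Trim28f/f mice (-0.53 ± 0.17; edgeR adjusted p = 0.26). In podocyte-like cells the smallest was that of Mrpl48 (0.88 ± 0.29; edgeR adjusted p = 0.42), described above by its level. Both were named after their values were seen.

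The median difference of the members stayed near 0. It was -0.056 in NPC-like, 0.019 in RV-like, -0.015 in ErPT-like and 0.002 in PT-like cells, with the median of all genes tested at -0.014, -0.008, -0.010 and 0.001. In SSB-like cells it was 0.109, with 71.8% of the members above 0 against 49.2% of all genes, and 34 of 78 members (43.6%; 17.5% of all genes) were higher in all 4 pairs. The SSB-like median was -0.017 with a minimum of 2500 UMIs per cell and -0.083 with classes from log normalization, so its direction depended on how cells were called and clustered. In cluster 5 it was -0.075, with 26.9% above 0, and 22 members (28.2%; 19.5% of all genes) were lower in all 4 pairs, and it was -0.0019 without mouse 4. Larger medians were 0.124 in podocyte-like (142 cells), 0.137 in mural-like (161 cells) and -0.121 in intercalated-like cells (92 cells). Over the settings other than leaving out a mouse these medians ran from 0.018 to 0.21 in podocyte-like, from 0.023 to 0.19 in mural-like and from -0.16 to -0.025 in intercalated-like cells. In cluster 20, of 105 cells, the median ran from 0.00013 to 0.098 over such settings. The part of the cell number in these medians was not tested. In podocyte-like and mural-like cells 22 members each (31.0% and 31.9% of those tested; 18.7% and 16.7% of all genes) were higher in all 4 pairs.

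The summed level in CPM, with no scaling between mice, was higher in both Trim28Δ/Δ mice than in both Trim28f/f mice in 6 of 20 classes and lower in 0. The 6 were SSB-like, RV-like, podocyte-like, immune-like and erythroid-like cells and cluster 7. The erythroid-like class joins cluster 17 with cluster 23, whose share of its cells differed between the mice. Cluster 23 held 7 and 18 cells of the Trim28Δ/Δ mice and 31 and 3 of the Trim28f/f mice, beside 21 and 31 and 68 and 44 of cluster 17. The part of this make-up in the sums was not tested. In SSB-like cells the mice had 8483 and 8634 CPM against 7916 and 8266 CPM, and in podocyte-like cells 7622 and 7826 CPM against 5961 and 7377 CPM. On this scale the median of all genes tested was above 0 as well in 5 of these classes (0.10 in cluster 7 and in immune-like cells, 0.066 in RV-like, 0.069 in podocyte-like and 0.52 in erythroid-like cells, and -0.012 in SSB-like cells). With TMM-scaled CPM, an alternative chosen after the data were seen, the tested members summed higher in both Trim28Δ/Δ mice in 2 classes, SSB-like (8580 and 8659 against 7967 and 8239 CPM) and immune-like cells (7115 and 7165 against 6790 and 6987 CPM), and lower in 1, cluster 5 (7618 and 7722 against 7724 and 8329 CPM). In cluster 7 the TMM-scaled sums were 7902 and 8270 against 7850 and 8312 CPM, and the groups overlapped. For 2 against 2 mice the smallest two-sided exact permutation p is 0.333. Mouse 3 (Trim28f/f) had the lowest unscaled sum in 18 of 20 classes (12 with TMM-scaled CPM), in and outside the nephron lineage, and both Trim28Δ/Δ mice were above mouse 3 in 19 classes but above mouse 4 (Trim28f/f) in 7 and below it in 10. Over all cells of a mouse, regardless of class, the sums were 8640, 8456, 7453 and 8214 CPM. PT-like cells, the class richest in the members, made up 313 of 1316 and 344 of 1491 cells in the Trim28Δ/Δ mice and 157 of 2749 and 185 of 1807 in the Trim28f/f mice.

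The order of the mice was not the same for every member. Over the 1560 combinations of member and class, mouse 3 was lowest in 727 and highest in 216. The order of the mice over all genes is not given here, so these counts stand without a background. Mrpl41 was lowest in mouse 3 in 19 of 20 classes, and Mrpl20 and Mrps11 in 18. In contrast, Mrpl45 was highest in mouse 3 in 15 classes, Mrpl1 in 14, and Mrpl23 and Mrpl24 in 13 each. Mrpl43 was highest in mouse 2 (Trim28Δ/Δ) in 16 classes, and Mrpl24 was lowest in mouse 4 in 16. These members were chosen after their values were seen.

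Whether the genotype difference itself differed between classes was tested by an interaction in edgeR, blocked on the mouse. Between NPC-like and PT-like cells 0 of 78 members passed (edgeR; 0.513% of 12659 genes called). Between NPC-like and stroma-like cells, which do not undergo the deletion, it was 0 of 78 (0.471% of 9769 genes called). At an unadjusted edgeR p under 0.05 there were 2 and 1 members, and the share of all genes at that level is not given here. Both comparisons rest on 13 and 33 NPC-like cells of the Trim28Δ/Δ mice. DESeq2 was not run for this test. The medians of these differences over members were -0.05 and 0.02 on the log2 scale, against -0.07 and -0.03 for all genes tested. Leaving out a mouse gave medians of -0.15 (without mouse 2) to -0.03 for the members between NPC-like and PT-like cells, and of -0.06 (without mouse 4) to 0.06 between NPC-like and stroma-like cells, so the direction of the latter was not stable, and 0 members passed in each.

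The cytosolic ribosomal proteins in the same cells serve as a comparison. Counts are given for 2 classes only. In cluster 7 edgeR called 1.56% of 10389 genes and DESeq2 0.683%. Of the 79 cytosolic genes, with a median of -0.42 against 0.024 for the members, 67 fell in the Trim28Δ/Δ mice by edgeR. DESeq2 called 0 of them (58 at an unadjusted p under 0.05, and 75 by edgeR). The share of all genes at this unadjusted level is not given here. None of the 79 was called by edgeR without mouse 1 or without mouse 2. The ratio of summed member to cytosolic ribosomal protein CPM was 0.0353 and 0.0372 in the Trim28Δ/Δ and 0.0266 and 0.0280 in the Trim28f/f mice, without overlap (exact permutation p = 0.333, the smallest possible). In NPC-like cells, where edgeR called 0.502% of 7974 genes, 11 of 79 fell (median -0.29, against -0.056 for the members). The ratio there was 0.0237 and 0.0220 against 0.0190 and 0.0191. DESeq2 called 0 of those 79 (13 unadjusted) and 0.263% of all genes in this class.

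**Figure D5:**
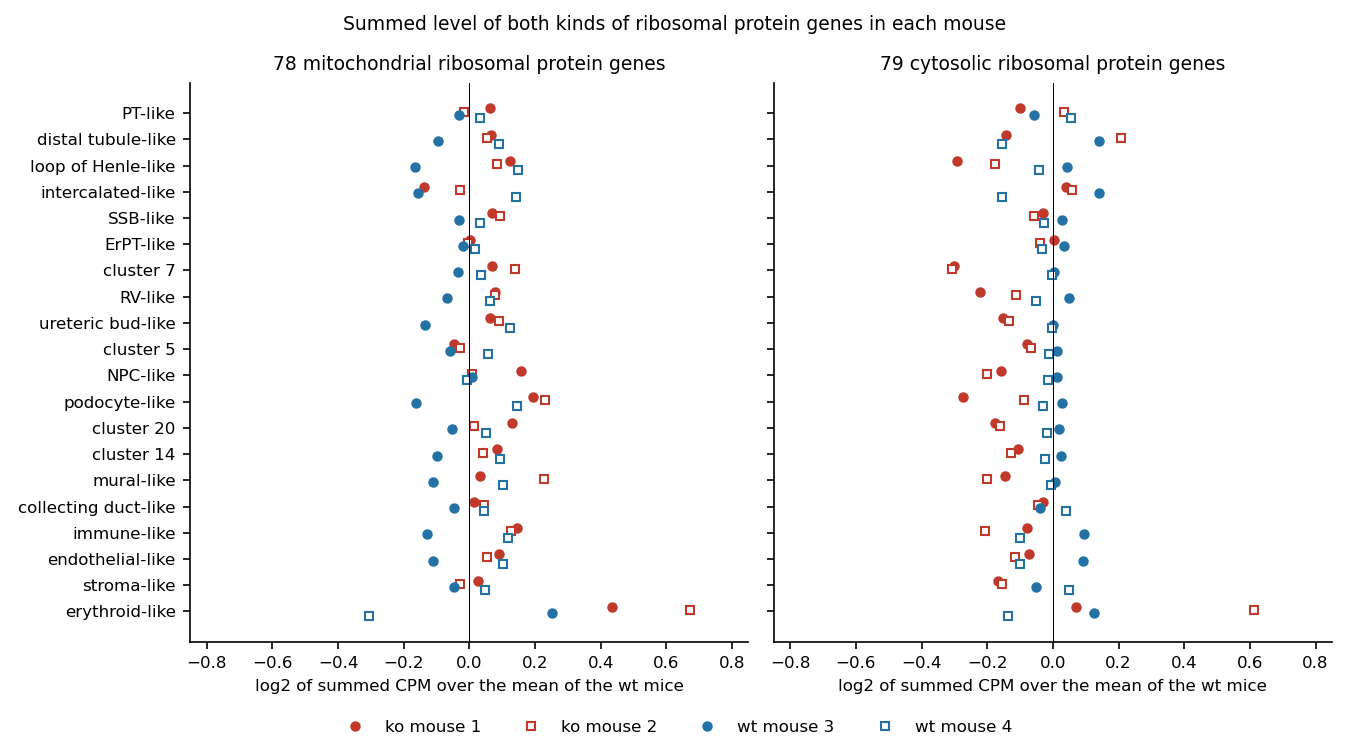
Summed CPM of the 78 mitochondrial (left) and 79 cytosolic (right) ribosomal protein genes in each class, as log2 over the mean of the Trim28f/f (wt) mice, with a point for each mouse and red for Trim28Δ/Δ (ko). In cluster 7 both Trim28Δ/Δ mice lie left of the Trim28f/f mice for the cytosolic genes and right of them for the mitochondrial genes on this unscaled CPM, where the median of all genes is shifted by 0.10, and with TMM scaling the mitochondrial sums of the groups overlap. Mouse 3 is the leftmost point of most classes for the mitochondrial genes.

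The other genes of the pathway gave few calls as well. Of the 5 ribosomal proteins with other symbols, the 18 assembly factors, the 15 translation factors, the 17 aminoacyl-tRNA synthetases and the 9 genes of mitochondrial DNA transcription and replication, 0 were called by edgeR in any of the 20 classes. In cluster 7 edgeR called 1.56% of 10389 genes and DESeq2 0.683%. Of the 10 regulators, Myc fell there (-1.92 ± 0.37, edgeR adjusted p = 0.030, DESeq2 adjusted p = 0.21). It had 7.45 and 6.36 CPM in the Trim28Δ/Δ mice and 27.7 and 24.9 CPM in the Trim28f/f mice. Of the 85 nuclear oxidative phosphorylation genes, Cox6b2, a subunit of complex IV known from testis, fell in cluster 7 (-1.95 ± 0.29, edgeR adjusted p = 0.0065, DESeq2 adjusted p = 0.0062). For this list 1 call among 85 genes is near the edgeR share of all genes, and Myc and Cox6b2 were both named after their values were seen. Neither passed without mouse 1 (edgeR adjusted p = 0.16 for Cox6b2 and 0.30 for Myc) or without mouse 2 (0.23 and 0.43). Of the 13 mitochondrially encoded mRNAs, mt-Co2, mt-Atp6 and mt-Co3 rose in cluster 5 by edgeR, which called 0.927% of 10576 genes there. The largest of these differences was that of mt-Co3, at 8259 and 7600 CPM against 5624 and 6872 CPM (0.34 ± 0.07; edgeR adjusted p = 0.035). DESeq2 gave an adjusted p of 1.0 for each of these mt genes. By edgeR none of mt-Co2, mt-Atp6 and mt-Co3 passed without mouse 1 (adjusted p = 0.73, 0.69 and 0.41) or without the cells marked as doublets by Scrublet (0.070, 0.097 and 0.066), and mt-Co2 and mt-Atp6 did not pass without mouse 2 (0.18 each).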

How the data were processed

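The gene expression and multiplexing libraries of a single pool of embryonic kidney cells were analysed for the 4 mice that could be matched to a tag. The bulk RNA samples that the labels also list were not analysed here. Cell Ranger (6.0.0 in the submitters' processing notes, 4 in the matrix header; builds GRCm38 and mm10 in the notes) was used by the authors for alignment, and they deposited its raw counts of UMIs per gene, tag and barcode, neither normalized nor restricted to cells. The deposited list of tags gives the mouse and genotype of 4 of the 8 tags in use, and cells with the other tags (4508) were left out.

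Barcodes with at least 6890 UMIs (order-of-magnitude rule, 24000 expected cells) were taken as cells, and 19272 of 21385 passed a minimum of 200 genes and a maximum of 10% for mitochondrial UMIs. HTODemux of Seurat 5.3.0 (positive quantile 0.99) assigned 7363 cells to the 4 mice. It set aside 4721 cells with several tags as doublets and 2680 with none, and Scrublet marked a further 7.65% of the assigned cells, which were left out as an alternative. Cells were clustered with sctransform 0.4.2 (3000 variable genes less the 1 member among them, 30 principal components, Louvain resolution 0.8). A cluster was named for the cell type whose markers had the highest mean log2 ratio to the other clusters (at least 0.5, at least 3 markers raised by 1.5-fold and found in 10% of cells, and no other type with more markers among its 10 leading genes). Shares and levels by class depend on these rebuilt names. Phases were called with Seurat's lists of 42 S genes (a member, Mrpl36, was taken out) and 54 G2/M genes.

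UMIs were summed per mouse and class, and CPM use all gene UMIs of that sum as the total. Genotypes were compared in edgeR 4.0.16 by its quasi-likelihood test (sums of 2 and 2 mice without covariates, filterByExpr, TMM, Benjamini-Hochberg adjustment over all genes of the class, threshold 0.05), and CPM printed beside a log2 difference are TMM-scaled. SEs are the absolute log2 difference over the square root of F. DESeq2 1.42.0, no filter, library size alone, other tag calls, UMI minimum, resolution, normalization and denominator, and leaving out each mouse were alternatives. The edgeR and DESeq2 p-values rest on the spread between 2 mice of each genotype, moderated for each gene by that of other genes. Levels between classes were described with no test, since all classes share their mice and library.

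The members and the gene lists were chosen with earlier results of these data known. Members were named if they passed the test in a class, if they had the 5 smallest p in NPC-like or PT-like cells among those that moved the same way in all 4 pairs of mice, by the 5 highest and 5 lowest mean CPM, by the 8 largest ratios of the highest to the lowest class among those with a mean of at least 20 CPM, or by role (Mrpl12, Mrps12, Mrpl45, Mrpl58, Mrps18a, Mrps18b, Mrps18c, Mrps30 and Mrps36), and outside them the 10 genes most like their sum. Gene positions are from the GENCODE annotation of GRCm38 and promoter sequences from RefSeq (GRCm38.p6, the first start of each symbol). The edgeR fits of NPC-like, PT-like and podocyte-like cells were tried on simulated counts, and the outcome is not given here. The totals per mouse were 25761268, 31087277, 52777501 and 35851952 UMIs.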

Additional observations from a re-analysis of the deposited data

How the results depend on the processing

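The count of 0 members called stayed at 0 in all 20 classes under DESeq2 and library size alone and in 19 without the cells marked by Scrublet, and no filter gave 1 in cluster 7. The share of all genes called in cluster 7 with no filter is not given here, so this call stands without a background. The count was 0 under the alternatives that call or cluster the cells anew in the named classes that these gave, 16 with each of the other tag calls, 15 with 2500 UMIs, log normalization or resolution 1.2 and 14 at resolution 0.4, and these were not run for clusters 5, 7, 14 and 20. Leaving out a mouse gave 0 to 7 in ErPT-like, 0 to 2 in NPC-like, 0 to 4 in PT-like, 0 to 1 in RV-like, 0 to 4 in SSB-like, 0 to 17 in collecting duct-like, 0 to 1 in distal tubule-like, 0 to 8 in endothelial-like, 0 to 1 in intercalated-like, 0 to 20 in loop of Henle-like and 0 to 3 in podocyte-like cells, 0 to 3 in cluster 5 and 0 to 5 in cluster 7. The calls came from fits without wt mouse 4 and, in intercalated-like cells, also without wt mouse 3. The lone wt mouse is then assumed to vary as the ko pair does. The share of all genes called without wt mouse 3 is not given here. The median log2 difference of the members moved in ErPT-like cells to -0.048 with no filter, 0.0059 with library size alone, -0.039 with k-means, 0.015 with 2500 UMIs and 0.045 with log normalization, in NPC-like cells to -0.13 with no filter and 0.066 with library size alone, in PT-like cells to 0.062 with k-means, 0.11 with 2500 UMIs and 0.12 with the tag share, and in SSB-like cells to 0.029, -0.017 and 0.074 with the same and -0.083 with log normalization. With library size alone it was 0.093 in RV-like, 0.13 in cluster 7, 0.046 in collecting duct-like, 0.57 in erythroid-like and 0.038 in stroma-like cells, where the median of all genes shifted by 0.12 in NPC-like cells, 0.10 in cluster 7 and 0.54 in erythroid-like cells. Leaving out a mouse gave medians of -0.021 to 0.0042 in ErPT-like, -0.14 to 0.0046 in NPC-like, -0.033 to 0.059 in collecting duct-like, -0.058 to 0.11 in distal tubule-like, -0.23 to 0.040 in intercalated-like, -0.11 to 0.061 in stroma-like and -0.11 to 0.15 in ureteric bud-like cells and of -0.031 to 0.13 in cluster 14, -0.040 to 0.084 in cluster 20, -0.12 to -0.0019 in cluster 5 and -0.053 to 0.037 in cluster 7. At resolution 0.4 the difference in NPC-like cells was 0.0082 for Mrpl52 and 0.051 for Mrps31. The summed level in ErPT-like cells was 8131 CPM with k-means, 7895 with 2500 UMIs, 7855 with the tag share, 7922 at resolution 0.4 and 8350 with log normalization. It was 10421 CPM with k-means in PT-like, 7577, 8010 and 7778 CPM with 2500 UMIs, tag share and log normalization in SSB-like, 8482 CPM at resolution 0.4 in distal tubule-like and 2742, 2629 and 1554 CPM with 2500 UMIs, tag share and log normalization in erythroid-like cells, where it was 7300 CPM without hemoglobin UMIs. In CPM computed without the mitochondrially encoded and cytosolic ribosomal protein genes it was 11838 in ErPT-like, 11897 in NPC-like, 13691 in PT-like, 11575 in RV-like, 11842 in SSB-like, 9845 in collecting duct-like, 12257 in distal tubule-like, 9279 in endothelial-like, 9163 in immune-like, 11072 in intercalated-like, 12022 in loop of Henle-like, 9625 in mural-like, 8883 in podocyte-like, 9273 in stroma-like and 11406 in ureteric bud-like cells, 9863 in cluster 14, 9433 in cluster 20, 11704 in cluster 5 and 11254 in cluster 7. The cause of these shifts was not tested. No paired analysis was possible because the replicate numbers shared by groups belong to the bulk samples, which were not used, and the numbers of the mice in the pool do not pair a ko with a wt mouse.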
